A study of Caenorhabditis elegans with 9 samples.

Results

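The apical junction genes of Caenorhabditis elegans epithelia were followed across 9 Affymetrix arrays. The 10 genes were ajm-1, dlg-1, let-413, hmr-1, hmp-1, jac-1, clc-6 (also named K10D6.2), par-3, par-6 and vab-10, out of 17118 genes with a probe set of their own. They were chosen by name, as junction proteins, the cadherin and its catenins, polarity proteins and a claudin-like protein. A probe set is the group of short probes that reads 1 transcript region, and 33 of 22548 probe sets were annotated to exactly 1 of these genes. Each gene was represented by its brightest probe set, that with the highest mean over the 9 arrays, and the other probe sets are given beside it. Values are log2 signals, so a difference of 1 is a doubling. By the gene annotation ajm-1 and dlg-1 lie on chromosome X, let-413, hmp-1 and clc-6 on V, hmr-1, par-6 and vab-10 on I, jac-1 on IV and par-3 on III.

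There were 3 groups of 3 arrays. Wnt overactivation animals (deIs10; huIs1) carried a heat shock ΔNTBAR-1 transgene, a β-catenin without the region through which it is degraded, and Wnt underactivation animals (deIs10; deIs26) carried a heat shock ΔNTPOP-1 transgene, a TCF that cannot bind β-catenin. N2 is the wild-type strain and carried no transgene. Both tagged strains were dpy-20(e1282) unc-30(e191), with dpy-20(+) in the heat shock transgenes, and shared deIs10, a single integrated line that expresses FLAG::PAB-1 from a bar-1 enhancer active in seam cells and vulval precursor cells. The deIs10 array also holds unc-30(+) and an ajm-1::gfp marker. Animals of all groups were kept at 20° for 26 h, up to the L2/L3 molt, then given a heat shock of 30 min at 37° and 1 h to recover. RNA bound to FLAG::PAB-1 was then immunoprecipitated, and the N2 arrays are the same procedure without the tag. The methods call the replicates of each group biological triplicates.

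Epithelial cells of the worm are joined by a belt near their apical surface. Its upper part is the cadherin-catenin complex, which ties the actin cytoskeletons of neighbouring cells together, and its lower part is the DLG-1/AJM-1 complex, which holds cells together and gives the staining used to outline seam cells. The PAR-3/PAR-6 polarity proteins mark the apical side on which the belt forms, and LET-413 gathers the junction proteins into 1 belt. Seam cells have such junctions with each other and with the surrounding epidermis. Those between seam cells are lost when these cells fuse with each other late in larval life. In the paper AJM-1 staining then shows the normal fused seam as parallel tracks.

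Between Wnt overactivation and N2, 2 of the 10 genes were called at an adjusted p under 0.05 (limma, Benjamini-Hochberg over all probe sets), both higher, and 1.57% of all genes were called in either direction. These were ajm-1, a gene that the tag array itself carries, and clc-6, a gene that the study picked from these arrays, so that neither is independent evidence of a direction. At an unadjusted p under 0.05 vab-10 was added as lower, which makes 3 of 10 against 17.3% of all genes. The 3 arrays of each group did not overlap for 4 genes (ajm-1, let-413 and clc-6 higher, vab-10 lower), against 20.5% of all genes. The median difference over the 10 genes was 0.19, and over all genes 0.069. N2 lacks the tag, the transgenes and the dpy-20 unc-30 mutations of both tagged strains. In differences from N2 these cannot be told apart from the change in Wnt signaling. These samples are also mixtures of cells, in which more cells of a type and more RNA per cell cannot be told apart.

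**Figure D1:**
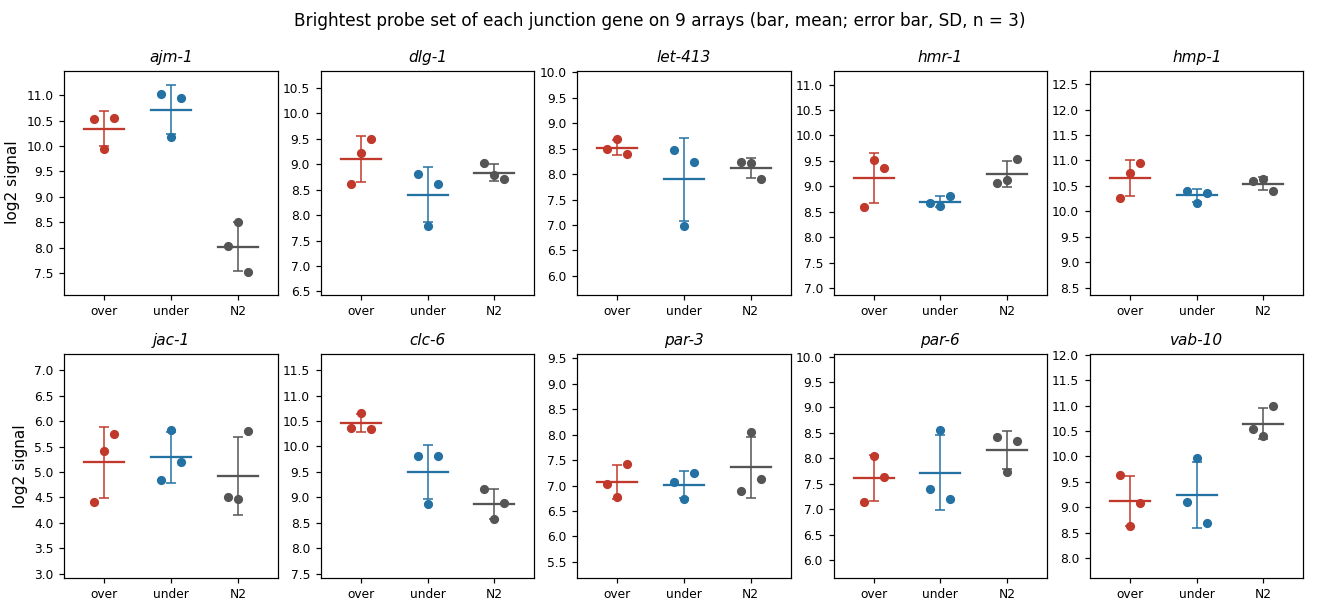
Log2 signal (y axis, each panel with its own offset and the same span) of the brightest probe set of each of the 10 junction genes in Wnt overactivation (over), Wnt underactivation (under) and N2, with points for arrays, a bar for the mean and error bars for the SD (n = 3 each). The ajm-1 points of both tagged strains lie above all N2 points, and the clc-6 points of overactivation lie above those of both other groups.

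AJM-1 is the coiled-coil protein of the DLG-1/AJM-1 complex. Its brightest probe set, 175053_at, read 10.53, 9.94 and 10.56 in Wnt overactivation, 11.03, 10.17 and 10.95 in Wnt underactivation, and 8.04, 8.50 and 7.53 in N2. All tagged arrays were above all N2 arrays, and both tagged strains overlapped each other. The difference was 2.32 (SE 0.33, adjusted p 0.0235) for overactivation minus N2 and 2.69 (SE 0.33, adjusted p 0.0692) for underactivation minus N2. Overactivation minus underactivation was -0.37, with a 95% interval from -1.13 to 0.38 (adjusted p 0.944). Because both tagged strains carry ajm-1::gfp and N2 does not, transcripts of the marker and of the ajm-1 gene cannot be told apart in this signal. The call over N2 was lost when any 1 overactivation array was left out (adjusted p 0.0540 without replicate 1, 0.0704 without replicate 3 and 0.0574 without replicate 4), with differences between 2.07 and 2.56 over all 9 single omissions.

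The other 5 ajm-1 probe sets differed in direction. Probe set 188333_s_at read 9.10, 8.79 and 10.12 in overactivation, 10.28, 10.53 and 10.47 in underactivation, and 7.47, 7.86 and 8.01 in N2, which is 1.55 over N2 in overactivation (adjusted p 0.0595) and 2.64 in underactivation (adjusted p 0.0692). Here the underactivation arrays were also wholly above those of overactivation. Probe set 176976_at went the other way, with 3.90, 5.11 and 5.74 in overactivation, 4.78, 5.74 and 5.74 in underactivation, and 7.44, 6.88 and 6.63 in N2. All tagged arrays were below all N2 arrays for this probe set (overactivation minus N2 -2.07, adjusted p 0.0716). The remaining probe sets differed from N2 in overactivation by 1.08 (194256_x_at, adjusted p 0.145), 0.08 (188324_at, adjusted p 0.928) and -0.57 (189079_s_at, adjusted p 0.596). The sources used here do not say which of these regions the ajm-1::gfp marker contains.

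The other genes carried by the transgenes were read in every group as a check of the labels. The dpy-20 probe set, a rescue marker on both heat shock transgenes, averaged 10.90 ± 0.38 in overactivation, 9.25 ± 0.64 in underactivation and 8.35 ± 0.76 in N2 (SD, n = 3 each), and was called over N2 in overactivation (2.55, adjusted p 0.0338). That call was kept only without underactivation replicate 4 or without N2 replicate 2. For bar-1, the β-catenin of the overactivation transgene, arrays read 10.002, 9.64 and 11.75 in overactivation, 9.55, 9.15 and 9.40 in underactivation, and 9.04, 9.55 and 9.18 in N2. Overactivation was thus above both other groups on every array (1.21 over N2, adjusted p 0.235). For pop-1, the TCF of the underactivation transgene, the signal was 10.22 ± 1.52 in underactivation, against 5.49 ± 0.83 in N2 (SD, n = 3 each), a difference of 4.73 (adjusted p 0.0799). The unc-30 rescue gene of deIs10 differed from N2 by 1.24 in overactivation (adjusted p 0.355) and by 1.40 in underactivation (adjusted p 0.41). The brightest probe set of pab-1, the gene of the tagged protein, differed from N2 by -0.33 in overactivation (adjusted p 0.585).

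DLG-1 is the Discs large scaffold that places AJM-1 at the junction. Its brightest probe set, 174906_s_at, read 8.62, 9.22 and 9.49 in overactivation, 8.80, 7.79 and 8.62 in underactivation, and 9.02, 8.78 and 8.70 in N2, and all 3 groups overlapped. Overactivation minus N2 was 0.27, with an interval from -0.45 to 0.99 (adjusted p 0.709), and overactivation minus underactivation was 0.71 (interval from -0.01 to 1.43, adjusted p 0.883). The second dlg-1 probe set, 191562_at, read 5.40, 6.78 and 7.44 in overactivation, 7.26, 7.66 and 7.29 in underactivation, and 8.75, 8.55 and 9.15 in N2. Every tagged array was below every N2 array there, with a difference of -2.28 in overactivation (SE 0.46, adjusted p 0.0508) and of -1.42 in underactivation (adjusted p 0.25). The overactivation difference passed the threshold only without overactivation replicate 4, where it was -2.73. The overactivation arrays spread more at this probe set (SD 1.04) than those of N2 (SD 0.31).

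LET-413 is the basolateral Scribble homolog that keeps junction and apical proteins in place. Probe set 174030_at read 8.49, 8.69 and 8.39 in overactivation, 8.47, 6.97 and 8.24 in underactivation, and 8.25, 8.22 and 7.90 in N2. The overactivation arrays were above those of N2 by a small margin (0.40, interval from -0.42 to 1.22, adjusted p 0.62), and underactivation replicate 4 was the lowest of all arrays. The other let-413 probe set, 186878_at, had the opposite order, with 5.94, 6.90 and 5.69 in overactivation, 7.03, 6.96 and 6.94 in underactivation, and 7.57, 7.14 and 7.96 in N2. No 2 groups overlapped for it, overactivation being lowest and N2 highest. Its overactivation minus N2 difference was -1.38 (adjusted p 0.0779).

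HMR-1 is the classical cadherin of the complex. Its brightest probe set, 175623_s_at, read 8.60, 9.52 and 9.36 in overactivation, 8.67, 8.62 and 8.81 in underactivation, and 9.06, 9.13 and 9.54 in N2. Overactivation overlapped N2 (-0.08, interval from -0.68 to 0.52, adjusted p 0.911), while all underactivation arrays were below those of N2 (-0.54, adjusted p 0.445). A second probe set, 192793_s_at, read 8.27, 8.12 and 8.70 in overactivation, 8.17, 7.34 and 7.43 in underactivation, and 9.99, 8.87 and 10.24 in N2. It was below N2 on all tagged arrays, with differences of -1.34 in overactivation (adjusted p 0.118) and -2.06 in underactivation (adjusted p 0.0976). The other 3 hmr-1 probe sets differed between overactivation and N2 by -0.50 to 0.36, with adjusted p of 0.339 and above.

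HMP-1 is the α-catenin that links cadherin to actin. Probe set 175647_at read 10.26, 10.74 and 10.96 in overactivation, 10.41, 10.17 and 10.36 in underactivation, and 10.59, 10.64 and 10.40 in N2. The groups overlapped, and the intervals were narrow beside those of the other junction genes: overactivation minus N2 was 0.11 (from -0.37 to 0.59, adjusted p 0.841) and underactivation minus N2 was -0.23 (from -0.71 to 0.25, adjusted p 0.744). The 3 other hmp-1 probe sets had overactivation minus N2 differences of -0.80, -0.62 and -0.85, the last from 174706_at, whose tagged arrays were all below those of N2 (adjusted p 0.0957). JAC-1, a p120 catenin that binds the inner part of the cadherin, had a single probe set, 188399_s_at. It read 4.41, 5.41 and 5.74 in overactivation, 4.85, 5.83 and 5.19 in underactivation, and 4.50, 4.46 and 5.80 in N2. These values overlapped throughout, and with a difference of 0.27 the interval ran from -0.80 to 1.34 (adjusted p 0.821).

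clc-6 encodes a claudin-like protein with several membrane spans, and claudins of other animals seal the space between epithelial cells. Its brightest probe set, 171905_x_at, read 10.37, 10.66 and 10.34 in overactivation, 9.81, 8.88 and 9.81 in underactivation, and 9.16, 8.58 and 8.89 in N2. Overactivation stood above both other groups on all arrays, and underactivation overlapped N2. Overactivation was 2.99-fold N2 (log2 difference 1.58, SE 0.29, adjusted p 0.0399) and 1.94-fold underactivation (0.96, adjusted p 0.649), and underactivation minus N2 was 0.62 (adjusted p 0.412). The letter x in a probe set name marks probes that can also match other sequences, so this signal may hold other transcripts. The call over N2 held in 2 of 9 fits with 1 array left out, without underactivation replicate 4 (adjusted p 0.0249) and without N2 replicate 2 (0.0428). It was lost without overactivation replicate 1, 3 or 4, underactivation replicate 2 or 5, or N2 replicate 3 or 4, with adjusted p between 0.0578 and 0.122 and differences between 1.43 and 1.64. The other clc-6 probe sets gave 0.88 over N2 (172422_x_at, adjusted p 0.163) and 0.15 (182010_s_at, adjusted p 0.858).

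PAR-3 and PAR-6 are PDZ-domain scaffolds of the apical polarity complex, which also holds the kinase PKC-3. The brightest par-3 probe set, 175616_at, read 7.02, 6.77 and 7.43 in overactivation, 7.06, 6.73 and 7.25 in underactivation, and 6.90, 8.05 and 7.13 in N2. Groups overlapped at this probe set (overactivation minus N2 -0.28, adjusted p 0.709) and at the other, 188931_s_at (-0.60, adjusted p 0.338). The brightest par-6 probe set, 193702_s_at, read 7.14, 8.04 and 7.64 in overactivation, 7.40, 8.57 and 7.20 in underactivation, and 8.42, 7.73 and 8.34 in N2, with a difference of -0.56 for overactivation minus N2 (interval from -1.46 to 0.34, adjusted p 0.512). The second par-6 probe set, 175652_at, read 8.23, 8.19 and 7.59 in overactivation, 7.98, 7.55 and 7.56 in underactivation, and 6.10, 6.82 and 6.55 in N2. All tagged arrays were above all N2 arrays, and overactivation was 2.85-fold N2 (1.51, SE 0.26, adjusted p 0.0345). With those of ajm-1 and clc-6, this made 3 of the 33 probe sets called, against 1.56% of all probe sets. Its call was kept only without overactivation replicate 4 or without underactivation replicate 4, and in underactivation the difference from N2 was 1.21 (adjusted p 0.115).

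VAB-10 is a large spectraplakin that anchors the cytoskeleton of the epidermis, with forms that bind intermediate filaments and forms that bind actin and microtubules, and is best known from the hemidesmosomes rather than the apical belt. Its brightest probe set, 182228_s_at, read 9.63, 8.64 and 9.08 in overactivation, 9.10, 9.96 and 8.68 in underactivation, and 10.54, 10.40 and 10.99 in N2. All tagged arrays were below all N2 arrays, with differences of -1.52 in overactivation (SE 0.37, adjusted p 0.0805) and -1.39 in underactivation (adjusted p 0.172). The second probe set, 175291_at, ran the other way, with 10.02, 9.33 and 9.48 in overactivation, 9.50, 8.55 and 9.26 in underactivation, and 8.72, 7.96 and 8.40 in N2. Here overactivation was above N2 on every array (1.25, adjusted p 0.0872) and underactivation overlapped N2 (0.74, adjusted p 0.374). Of the other 4, 194232_x_at was at -0.87 for overactivation minus N2 with no overlap (adjusted p 0.0569, and called only without N2 replicate 2), 194015_at was at -1.40 (adjusted p 0.186), and 191942_s_at and 177636_at were at -0.66 and -0.40. The sources used here do not say which VAB-10 form each probe set reads.

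**Figure D2:**
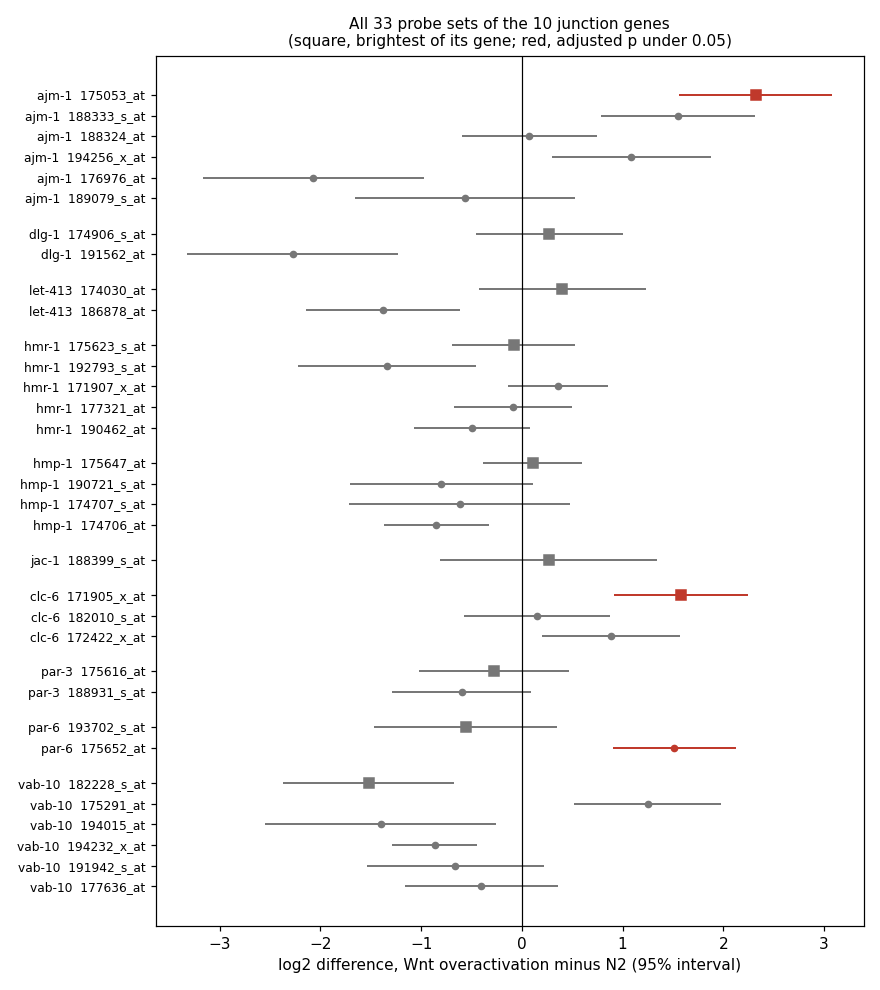
Log2 difference, Wnt overactivation minus N2 (x axis), for all 33 probe sets of the 10 junction genes, grouped by gene, with 95% intervals from the limma fit, squares for the brightest probe set of a gene and red for an adjusted p under 0.05. The probe sets of ajm-1, dlg-1, let-413, hmr-1, hmp-1, par-6 and vab-10 lie on both sides of 0, and the 3 called probe sets are all above it.

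Probe sets of the same gene differed among themselves, and their ranges are set beside those of other genes. For overactivation minus N2, the range between the probe sets of a gene was 4.39 for ajm-1 and 2.77 for vab-10, against a median of 1.98 over the 11 genes with 6 probe sets, these 2 included. It was 2.55 for dlg-1, 2.07 for par-6 and 1.78 for let-413, against a median of 0.56 over the 2496 genes with 2 probe sets, and 0.32 for par-3. It was 1.70 for hmr-1 (median 1.36 with 5 probe sets), 1.43 for clc-6 (0.88 with 3) and 0.96 for hmp-1 (1.29 with 4). In 3 of the 9 junction genes with several probe sets (ajm-1, let-413 and vab-10), 1 probe set was wholly above N2 and another wholly below, against 2.05% of the 2981 genes with several. That share is not matched for the number of probe sets: 2496 of the 2981 genes have 2, while ajm-1 and vab-10 have 6. Over all 33 probe sets the overactivation arrays were wholly above N2 in 8 and wholly below in 8, against 20.7% of all probe sets in either direction. The median over the 33 was -0.28, on the other side of 0 from the median of the brightest ones. In 7 of 9 junction genes the brightest probe set had the higher difference of the 2 brightest, as in 65.7% of all genes with several.

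**Figure D3:**
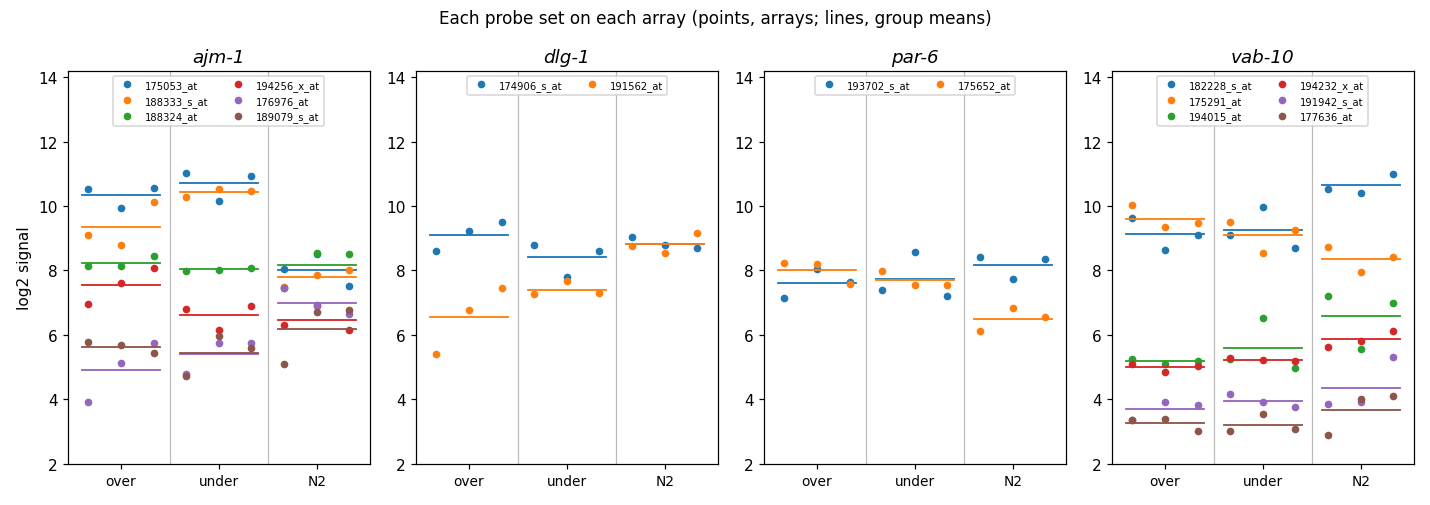
Log2 signal (y axis) of every probe set of ajm-1, dlg-1, par-6 and vab-10 on each array, with points for arrays and lines for the mean of Wnt overactivation (over), Wnt underactivation (under) and N2. Within ajm-1, 175053_at and 188333_s_at step down at N2 while 176976_at steps up, and within vab-10 182228_s_at and 175291_at move in opposite directions.

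Control probe sets read the 3' and the 5' end of 5 transcripts. For the actin control probe sets the 3' minus 5' signal was 1.88, 2.25 and 1.47 in overactivation, 2.08, 0.90 and 2.35 in underactivation, and 0.67, 0.80 and 0.91 in N2. The overactivation arrays did not overlap those of N2, and in underactivation replicate 4 was near N2. The overactivation arrays were also wholly above N2 for Gapdh (means 3.36 in overactivation and 2.45 in N2), Ubiquitin (7.08 and 6.31) and gly14 (-1.17 and -1.39), while for catalase the groups overlapped, with means of 6.30 in overactivation and 6.91 in N2. With the actin value as a covariate the overactivation minus N2 difference was 2.03 for ajm-1 (adjusted p 0.668) and 0.94 for clc-6 (adjusted p 0.758). It was 1.21 for par-6 175652_at (adjusted p 0.724) and -0.74 for vab-10 182228_s_at (adjusted p 0.934). In this fit 0 of the 10 genes were called, and the share of all genes called was not counted. Because the actin values of overactivation and N2 did not overlap, this fit cannot fully separate the group difference from the covariate. Where along its transcript each probe set lies was not analysed here, and the part of end bias in the differences between probe sets was not tested.

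Between both tagged strains, which share deIs10 and its marker, 0 of the 10 genes were called in overactivation minus underactivation by limma. The share of all genes called there was 0.00584% (1 gene). The same model without moderation also called 0 of the 10. At an unadjusted p under 0.05 only clc-6 was higher, 1 of 10 against 5.91% of all genes, and it was also the only gene with no overlap between the strains, against 12.1% of all genes. Without underactivation replicate 4, the lowest clc-6 value of that group, the clc-6 difference was 0.65. Over the 33 probe sets overactivation was wholly higher in 5 and wholly lower in 3, against 11.8% of all probe sets in either direction. The 3 lower ones belonged to ajm-1 (188333_s_at), let-413 (186878_at) and vab-10 (194232_x_at). The median difference over the 10 genes was 0.20, and over all genes 0.034.

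In underactivation minus N2, 0 of the 10 genes were called by limma, as for all genes (0%). The same model without moderation also called 0 of the 10. At an unadjusted p under 0.05 ajm-1 was higher and vab-10 lower, 2 of 10 against 12.7% of all genes. The arrays did not overlap for ajm-1 (higher), vab-10 and hmr-1 (both lower), 3 of 10 against 15.8%. The adjusted p of ajm-1 was 0.0496 when the dimmest probe sets (a share of 0.333) were left out. Of the 33 probe sets, 3 were wholly above N2 and 10 wholly below, against 15.7% of all probe sets in either direction. The median over the 10 genes was -0.29, and over all genes 0.030. The comparisons of overactivation and of underactivation with N2 use the same N2 arrays and are not independent of each other.

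**Figure D4:**
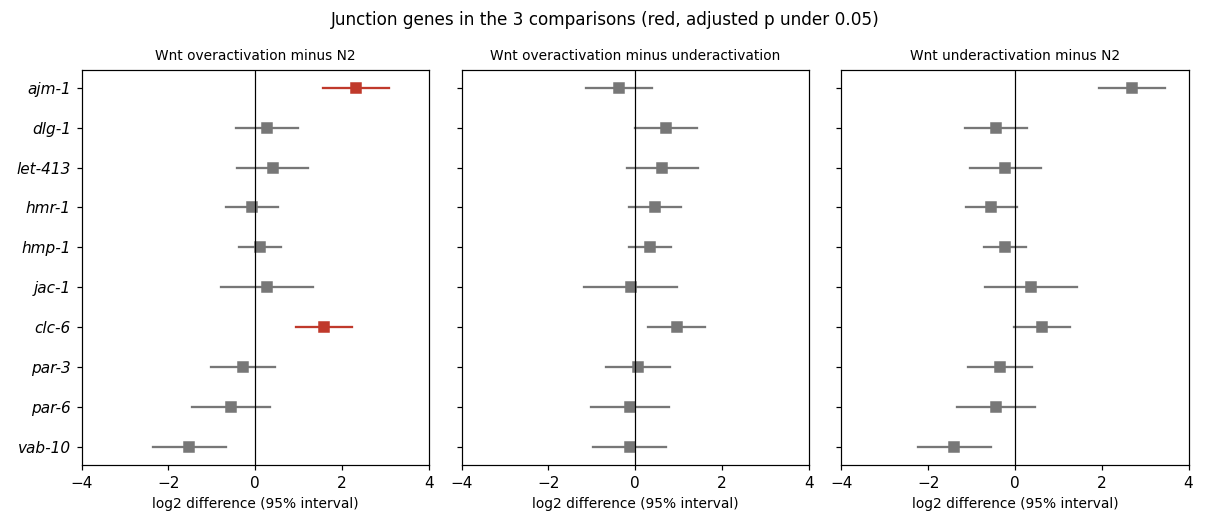
Log2 difference (x axis) with 95% intervals for the brightest probe set of each of the 10 junction genes in Wnt overactivation minus N2, Wnt overactivation minus Wnt underactivation, and Wnt underactivation minus N2, red for an adjusted p under 0.05. ajm-1 stands at 2.32 and 2.69 over N2 in the tagged strains and at -0.37 between them, and clc-6 is at 0.96 between them.

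Genes that work with the junction were examined as 4 lists, 53 of 54 genes being measured (crb-3 had no probe set of its own). In overactivation minus N2, 2 of 53 were called higher and 0 lower, against 1.57% of all genes, and the median was 0.18, against 0.069 over all genes. The unadjusted p was under 0.05 for 11 that were higher and 1 that was lower, against 17.3% of all genes. In the other comparisons limma called 0. For overactivation minus underactivation 1 of 53 genes, a lower one, had an unadjusted p under 0.05, against 5.91% of all genes. For underactivation minus N2 these were 8 higher and 2 lower genes, against 12.7% of all genes. Both called genes belong to the hemidesmosome list of 8 genes, which fasten the epidermis to muscle and cuticle, and of which 7 were above 0 in overactivation minus N2 (median 0.73). The intermediate filament gene ifb-1 read 11.31, 11.67 and 11.77 in overactivation, 11.31, 10.77 and 11.08 in underactivation, and 10.40, 10.61 and 10.03 in N2. Its tagged arrays were above all N2 arrays (overactivation minus N2 1.23, adjusted p 0.0431). The gene pat-12, needed to hold hemidesmosomes together, read 9.91, 9.59 and 10.25 in overactivation, 9.28, 8.83 and 9.91 in underactivation, and 8.52, 8.20 and 8.46 in N2. Its arrays were ordered in the same way (1.52, adjusted p 0.0459). Each of these calls was kept only when underactivation replicate 4 was left out, among the 9 single omissions. Other probe sets of pat-12 were at -1.04 and 0.34 for overactivation minus N2, and that of ifb-1 at 0.74. A further intermediate filament gene, mua-6, was at 1.84 (adjusted p 0.108).

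Of 24 claudin-like genes, 18 were above 0 in overactivation minus N2 (median 0.30), beside 9900 of all 17118 genes, and 0 were called. The arrays did not overlap for 10 of the 24, all higher, against 20.5% of all genes in either direction. Of these 10, clc-4, clc-12, clc-24, clc-32 and clc-33 were among the dimmest probe sets (a share of 0.333), as were several more of the 24. An unadjusted p under 0.05 was found for 4 of the 24, all of them higher, against 17.3% of all genes. The gene clc-5 read 8.51, 7.50 and 7.90 in overactivation, 7.46, 6.12 and 7.75 in underactivation, and 5.73, 6.19 and 5.69 in N2. Overactivation was above N2 on every array (2.10, adjusted p 0.0541), while underactivation overlapped it. The differences of clc-2 and clc-21 were 2.14 (adjusted p 0.208) and 1.18 (adjusted p 0.146). The 7 partners of the adherens junction had a median of -0.19 with 0 called, and the widest differences were those of zoo-1, the ZO-1 homolog (-0.996, adjusted p 0.271), hmp-2, the β-catenin of the cadherin complex (0.54, adjusted p 0.238), and srgp-1, which helps bend the junctional membrane (-0.53, adjusted p 0.509). The 14 measured polarity and apical cortex genes had a median of -0.10 with 0 called. Among these nfm-1, a Merlin homolog, was at 1.16 (adjusted p 0.0957), par-4, the LKB1 kinase, at 0.74 (adjusted p 0.333) and eat-20, a Crumbs-like protein, at -0.60 (adjusted p 0.677). Other probe sets were at -0.20 for nfm-1 and -0.28 for eat-20. Those of par-4 were at -0.10 and 0.16, both among the dimmest probe sets (a share of 0.333).

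**Figure D5:**
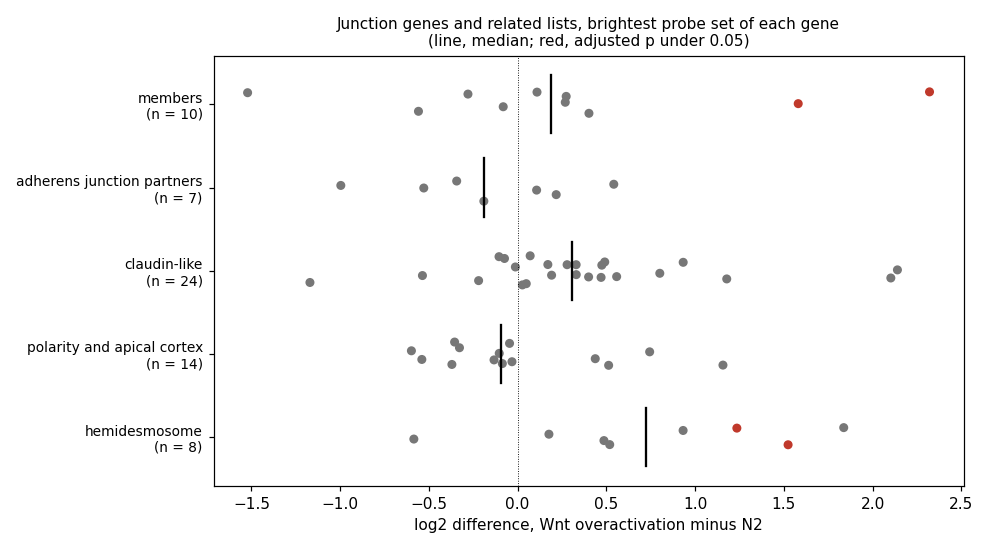
Log2 difference, Wnt overactivation minus N2 (x axis), of the brightest probe set of each gene in the 10 junction genes (members) and the 4 related lists, with a line for the median of a list and red for an adjusted p under 0.05. The hemidesmosome list has the highest median (0.73) and the adherens junction partners the lowest (-0.19).

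Across the 9 arrays some junction genes varied together. By their brightest probe sets, Pearson's r was 0.90 for dlg-1 with hmp-1, 0.81 for dlg-1 with let-413 and 0.71 for hmr-1 with hmp-1, whereas vab-10 ran against ajm-1 (-0.87) and clc-6 (-0.80). These arrays share groups and normalization, so the values are a description. Among the 8559 genes at or above the median level, those most like ajm-1 were nhr-212 (r = 0.99), chil-24 (0.96) and nhr-237 (0.96). Those most like clc-6 were nud-2 (0.96), sucl-2 (0.96) and suf-1 (0.96).

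Markers of other tissues also differed in the comparison in which ajm-1 and clc-6 were called. In overactivation minus N2, all 11 body wall muscle markers had lower means, with 2 called, and their mean level was 9.27 to 9.86 in overactivation, 9.58 to 10.17 in underactivation and 10.39 to 10.53 in N2. Of all 17118 genes, 7218 had lower and 9900 higher means in that comparison, and 1.57% were called in either direction. Of 11 neuronal markers 10 had lower means (1 called), with levels of 6.12 to 6.25 in overactivation, 6.26 to 6.66 in underactivation and 7.05 to 7.14 in N2, and of 9 intestinal markers 7 had lower means (1 called), with levels of 6.09 to 6.88 in overactivation, 5.97 to 7.09 in underactivation and 6.96 to 7.80 in N2. The 9 measured of 11 seam cell markers had 7 higher means and 0 called, with levels of 6.93 to 7.27 in overactivation, 6.18 to 6.87 in underactivation and 6.23 to 6.63 in N2. Among these, egl-18, elt-6 and che-14 were picked by the study from these arrays as higher in overactivation. The 8 markers of other epidermis had a median of 0.18, the 5 of vulval precursor cells 0.41, and the 6 each of pharynx and germ line -0.44. The study also picked nhr-23 of the other epidermis list and lin-1 of the vulval list from these arrays. The vulval median was the value of lin-39, which the paper calls a predicted Wnt target. Markers picked from these arrays are not independent evidence of a direction. No marker list was at 0 on these log2 values. In underactivation minus N2, the seam cell markers had 4 higher and 5 lower means (median -0.02). The vulval ones had 2 higher and 3 lower (median -0.14). Lower means were found there for 10 of 11 body wall muscle, 9 of 11 neuronal and 7 of 9 intestinal markers. Of all 17118 genes, 9231 had higher and 7887 lower means in that comparison, and 0 were called. The part of tissue makeup in the differences of the junction genes was not tested. Underactivation replicate 4 correlated over all probe sets with N2 replicate 4 (r = 0.973) at least as well as with its own group (0.969 to 0.971).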

How the data were processed

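Signals of 9 C. elegans GeneChip arrays were used as log2 values deposited by the authors, who made them with Robust Multichip Average in Partek (version not given in the sources used here). The labels describe cRNA from total RNA and the methods amplified cDNA from immunoprecipitated mRNA; which applies could not be told from the values. Arrays of the deIs10; scm::gfp strain were not analysed here. Groups and replicate numbers came from the labels, and 0 columns of values went unused. Probe sets were named through the platform annotation (20766 with 1 gene, 887 with several, 895 with none); only those with 1 gene were used for genes. Array controls (77) were removed, and probe sets were neither filtered on signal nor tested against background.

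The 3 group means of each of 22548 probe sets were fitted in limma 3.58.1 (R 4.3.3) and moderated by empirical Bayes, with 2.71 prior and 6 residual degrees of freedom. Tests were two-sided, adjusted by Benjamini-Hochberg per comparison at 0.05. The fit was tested on simulated data. Plots used Python 3.11.15 and matplotlib 3.10.9. Precision is limited by the number of arrays.

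The 10 genes and all lists were chosen with earlier results of these data known. All junction genes and transgene genes are named; from each related list, genes called in any comparison, then those with the largest difference between overactivation and N2 up to 3; and the 3 genes most correlated with each called junction gene. Alternatives were quantile normalization again, median centring, a filter removing the 0.333 of probe sets with the lowest means, no moderation, trend and robust moderation, a replicate block, array weights, an actin 3' minus 5' covariate, only the groups compared, the mean of all probe sets, the second brightest probe set, and each array left out. Leaving out ajm-1 was added after seeing the data.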

Additional observations from a re-analysis of the deposited data

How the results depend on the processing

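The 2 junction genes called in overactivation minus N2 became 0 without moderation, with the actin covariate, with only the groups compared and with the mean of all probe sets, and 1 with the second brightest probe set (par-6, while ajm-1 and clc-6 were not called) or without ajm-1 (clc-6); single omissions gave 0 to 2. The 2 related genes called became 1 after quantile normalization and 0 without moderation, with array weights, with the actin covariate, with only the groups compared and with the mean of all probe sets (single omissions 0 to 4). In underactivation minus N2, the count of 0 became 1 without the dimmest probe sets. The share of all genes called was not counted in any of the alternative fits. The median over the junction genes, 0.19 for overactivation minus N2, was -0.057 with the actin covariate, -0.38 with the mean and -0.23 with the second brightest probe set (single omissions -0.026 to 0.36); 0.20 for overactivation minus underactivation was -0.057 and -0.12 in the last 2 of these (0.039 to 0.41), and -0.29 for underactivation minus N2 was -0.49 with the second brightest (-0.35 to -0.14). The cause was not tested.

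Signs turned mostly with the probe set. For overactivation minus N2, the second brightest gave -2.28 for dlg-1, -1.38 for let-413, -0.80 for hmp-1, 1.51 for par-6 and 1.25 for vab-10; the mean gave -1.001 for dlg-1, -0.49 for let-413, -0.54 for hmp-1 and 0.48 for par-6; the actin covariate gave -0.17 for dlg-1, -0.49 for let-413 and 0.15 for par-6. For overactivation minus underactivation, the second brightest gave -0.86 for dlg-1, -0.80 for let-413, -0.22 for hmp-1, -0.14 for par-3, 0.31 for par-6 and 0.51 for vab-10, and the mean -0.077 for dlg-1, -0.086 for let-413, -0.040 for par-3 and 0.097 for par-6. For underactivation minus N2, the second brightest gave -0.53 for clc-6, 1.21 for par-6 and 0.74 for vab-10, and par-6 was 0.38 with the mean and 0.21 with the actin covariate. Over all alternatives other than single omissions, 281 values of single genes kept direction and side of the threshold, 12 lost a call, 1 gained one and 30 turned sign. Only ajm-1 and clc-6 in overactivation minus N2 had calls to lose, so most of the 281 were values not called in either fit. Single omissions crossed 0 for hmr-1 (-0.26 to 0.20), hmp-1 (-0.043 to 0.31), jac-1 (-0.0095 to 0.71) and par-3 (-0.51 to 0.064) in overactivation minus N2; for jac-1 (-0.38 to 0.29), par-3 (-0.11 to 0.22), par-6 (-0.37 to 0.31) and vab-10 (-0.41 to 0.23) in overactivation minus underactivation; and for let-413 (-0.51 to 0.23) and par-3 (-0.57 to 0.00029) in underactivation minus N2.

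The labels do not say whether arrays with the same replicate number share a culture or day. Residuals of the 5 same-number pairs correlated at -0.088 to 0.234, and of the other 22 at -0.197 to 0.211. These ranges overlap, and the highest value was that of underactivation replicate 4 with N2 replicate 4. Whether the number marks a shared batch was not tested. With the replicate number as a block, 0 junction genes and 0 related genes were called in overactivation minus N2, the median was 0.40 and hmr-1 was 0.16; in overactivation minus underactivation jac-1 was 0.14 and par-3 -0.0089.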
